A study of Saccharomyces cerevisiae with 14 samples.

Results

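Chromosomes I, III, VI and IX are the 4 shortest of the 16 nuclear chromosomes of budding yeast, and their copy number was followed on 14 arrays by aCGH, array comparative genomic hybridization. Strain DNA in Cy5 and reference DNA in Cy3 bind the same probes in competition, and the log2 ratio of the colours follows the copy number of the strain relative to the reference. A log2 ratio of -1.0 is that of 1 copy against 2, and 0.58 is that of 3 copies against 2. The probes were chosen by position, as those more than 20 kb from both chromosome ends, and a short stretch of chromosome III with 6 probes, from 91376 to 92353, was left out. Earlier results of these data were known when this choice was made, and the values of the stretch left out are given at the end. The rule kept 981 probes on chromosome I, 1388 on III, 1155 on VI and 2031 on IX, or 5555 of the 59133 nuclear probes used. Coordinates are those of build sacCer2, and a chromosome was taken to end at its last probe, at 230 kb for I, 316 kb for III, 270 kb for VI and 439 kb for IX.

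The arrays held 13 TAQed strains and WT14, the diploid they came from, with 1 array each. WT14 was made by fusing S799, a strain of SK1 descent, with YPH499, a strain of S288C descent, and all strains share this fused background. TaqI is a restriction endonuclease of a thermophilic bacterium. It was expressed in the TAQed strains with copper and switched on by heating cells to 42 °C for 30 min, which cuts the genome at many sites at once. WT14 served as the control without TaqI activation. It was also the Cy3 reference on every array, so its own array compared WT14 with itself, and a change already carried by WT14 cancels everywhere. Each TAQed strain is 1 clone, isolated after the treatment, so the spread between arrays is a spread between clones, and no strain has a replicate of its own. The paper picked these clones from mutants with small colonies because their cell shape was altered. They are therefore not a random sample of treated cells.

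Budding yeast diploids tolerate extra or missing chromosomes, since a remaining homolog covers the genes of a lost one. Chromosomes I, III and VI are the smallest in the genome and are known for a high density of meiotic recombination. Chromosome III carries the mating type locus, and chromosome VI carries ACT1 and TUB2, the genes for actin and beta-tubulin, of which extra TUB2 is poorly tolerated. A diploid with a single copy of a chromosome is called monosomic for it, and a change of only part of a chromosome leaves a step in the ratio at the position where copy number changes.

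The level of a chromosome is the median of its probes after each array was centred on its own median. On the WT14 array the 4 levels lay within 0.016 of each other, at 0.029 for I, 0.026 for III, 0.013 for VI and 0.013 for IX. In the TAQed strains all 4 tended to lie lower. Chromosome III ranged from -0.31 in strain 106 through a median of -0.13 to -0.024 in strain 76. Chromosome IX ranged from -0.21 in strain 106 through -0.097 to -0.019 in strain 76. Both were below 0 and below WT14 in 13 of 13 strains, although the control is a single array of WT14 against itself. No chromosome outside the 4 was below WT14 in every strain, but several came close. Chromosome V was above WT14 only in strain 81 (0.42 against 0.013) and X only in strain 84 (0.017 against 0.0040). Chromosome XI was above it only in strain 97 (0.0043 against 0.0016) and XIII only in strain 119 (0.015 against 0.0023).

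Chromosome VI ranged from -0.25 in strain 106 through a median of -0.066 to 0.042 in strain 76, and 11 of 13 strains were below WT14. Chromosome I ranged from -1.06 in strain 113 through -0.087 to 0.052 in strain 107, and again 11 of 13 strains were below WT14. Apart from chromosome I of strain 113, every level lay between -0.31 and 0.052, short of the -1.0 of a copy missing in all cells. In DNA pooled from a culture, a copy missing in a share of the cells and a smaller shift in all of them cannot be told apart. The order among the 4 was not the order of length. Chromosome III was the lowest of them in 9 strains, IX and I in 2 each, and VI was the highest in 8 strains, IX in 3 and I in 2.

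**Figure D1:**
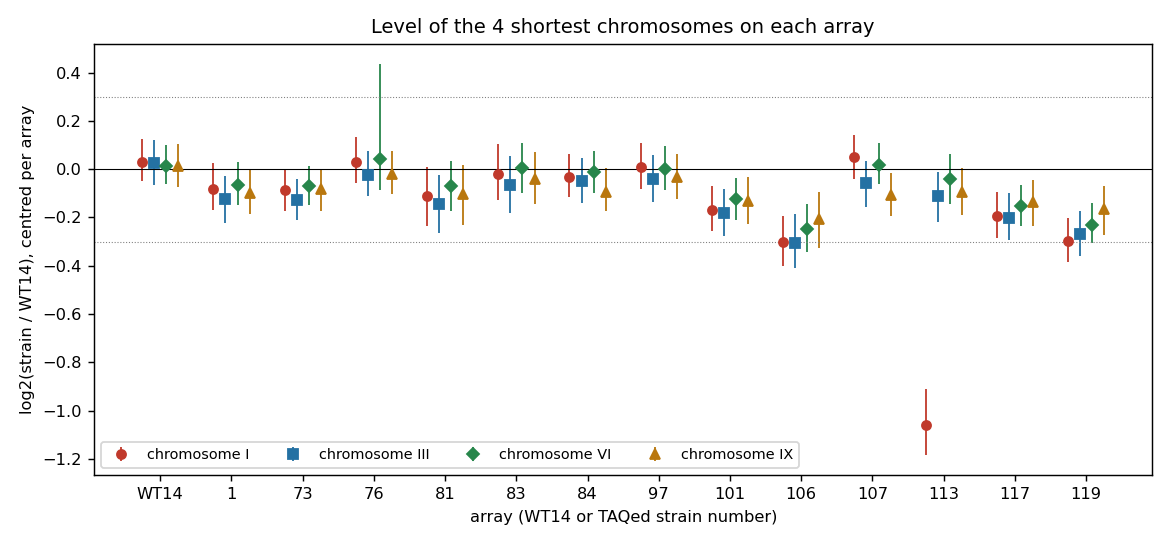
Median log2 ratio of strain over WT14 for the probes of chromosomes I, III, VI and IX on each of the 14 arrays, with bars over the interquartile range of the probes. Dotted lines mark 0.3 and -0.3. Chromosome I of strain 113 stands alone at -1.06, strains 106 and 119 have 4 low chromosomes, and the long upper bar of chromosome VI in strain 76 belongs to a gained stretch.

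Whether the short chromosomes as a group lay below the rest was asked within each array, as the mean of the 4 levels minus the mean of the other 12, a difference on which centring has no effect. It ranged from -0.32 in strain 106 through -0.091 in strain 117 to 0.055 in strain 107, with a mean of -0.107 ± 0.101 (SD, n = 13). It was negative in 12 of 13 strains and 0.021 on the WT14 array. The shift from 0 passed a two-sided exact permutation test that flips signs (p = 0.0022). All 13 ratios share WT14 DNA as the reference. This test and the pair tests below therefore cannot tell a trait of the TAQed strains from one of that reference. In strain 107, the exception, chromosome XIV of the comparison group stood at -0.98. Set against the median of the other 12, which single changed chromosomes hardly move, the mean difference was -0.119 ± 0.109 (SD, n = 13, exact permutation p = 0.00073), and strain 76 was then the exception at 0.020.

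Strains had been hybridised on 2 slides, WT14 with 5 of them on the first and 8 on the second. Within slide 1 the difference was -0.092 ± 0.066 (SD, n = 5), negative in 5 of 5 strains, with an exact permutation p of 0.0625, the smallest that 5 strains allow. Within slide 2 it was -0.117 ± 0.122 (SD, n = 8), negative in 7 of 8 strains (exact permutation p = 0.031). Set against the median of the other 12, the slides lay further apart, at -0.056 ± 0.053 on slide 1 (SD, n = 5, negative in 4, exact permutation p = 0.125) and -0.159 ± 0.118 on slide 2 (SD, n = 8, negative in 8, exact permutation p = 0.0078), and this gap between slides was not tested. Mean levels on slide 1 were higher than on slide 2 by 0.19 for I, 0.054 for III, 0.066 for VI and 0.052 for IX. None of these 4 differences, nor that of the group against the other 12 (0.025), passed a two-sided exact permutation test after adjustment over the 5 tests, with adjusted p of 0.36 to 0.70.

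Chromosome length and level went together across the 16 chromosomes in most strains. All 4 short ones were among the 5 lowest of the 16 in 7 of 13 strains, 3 of them in 3 strains, 2 in strain 97 and 1 in strains 76 and 107. Spearman's rho of level against length, over 16 chromosomes of 1 array that share labelling and centring, was 0.96 in strain 119, 0.82 in strain 106 and 0.80 in strain 101, the median strain. It was -0.059 in strain 76, the only strain below 0. On the WT14 array rho was -0.93, but over levels that only spanned from -0.015 on chromosome IV, the longest, to 0.029 on chromosome I. In strain 106 the same span ran from -0.31 on III to 0.57 on IV, and in strain 119 chromosome IV lay at 0.16 while I lay at -0.30. These correlations describe single arrays and have no test. In strain 106 chromosomes IV and XII, at 0.57 and 0.34, were themselves past 0.3, the limit used here for a gain, and the centre of an array moves with such large changes.

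**Figure D2:**
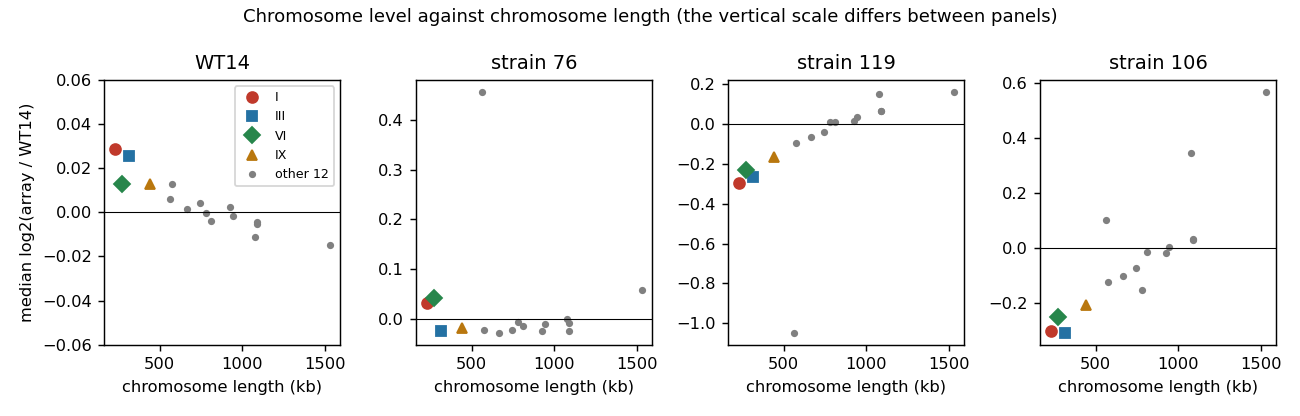
Median log2 ratio of each of the 16 chromosomes against chromosome length in kb, for WT14 and strains 76, 119 and 106, with the 4 short chromosomes in colour. The vertical scale differs between panels: the levels of WT14 lie between -0.015 and 0.029 and fall with length, those of strains 119 and 106 rise with length, and those of strain 76 show no such rise.

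Probes near chromosome ends make up more of a short chromosome, so the level was also read by distance from the nearer end. On the other 12 chromosomes, probes 20 to 50 kb from an end lay lower than those over 100 kb away by 0.13 on average, a difference of -0.132 ± 0.102 (SD, n = 13), negative in 11 strains and 0.017 on WT14. On the 4 short chromosomes that difference was smaller, at -0.036 ± 0.054 (SD, n = 13), negative in 10 strains and 0.015 on WT14. Even over 100 kb from an end, the pooled probes of the 4 short chromosomes stood at a mean of -0.092 over the strains. No strain was above -0.018 in this pool, in which IX held 1216 of 2319 probes on the array of strain 107. Taken singly at this distance, I reached 0.071 and VI 0.028 in strain 107, while III stayed at or below -0.024 and IX at or below -0.015. The same bin of the other 12 chromosomes stood at 0.033, and no strain was below 0.00018. When the other 12 were weighted to the same end distances, the short chromosomes were lower by 0.065 on average, a difference of -0.065 ± 0.091 (SD, n = 13), negative in 11 of 13 strains (two-sided exact permutation p = 0.0085). This version takes medians of pooled probes of the other 12, where the first took the mean of their 12 levels. The change from -0.107 to -0.065 therefore does not measure a share that goes with end distance, which was not tested. Within slide 1 the weighted difference was -0.024 ± 0.043 (SD, n = 5, exact permutation p = 0.19) and within slide 2 -0.090 ± 0.106 (SD, n = 8, exact permutation p = 0.039).

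Among the 4 chromosomes themselves, 6 pairs were compared within arrays, with two-sided exact permutation tests adjusted over the 6. The steadiest difference was that of III and VI. Chromosome III, although the longer, was below VI in 13 of 13 strains, by -0.077 to -0.035, with a mean of -0.058 ± 0.014 (SD, n = 13, exact permutation adjusted p = 0.0015). On WT14 it was 0.013 above VI, outside the range of the strains when all probes of VI were used. In strain 76 part of VI was gained, and without that stretch III lay 0.024 above VI there. The strains then ranged from -0.077 to 0.024, and WT14 fell inside that range. This left 12 of 13 strains below 0 and a mean of -0.051 ± 0.026 (SD, n = 13, exact permutation adjusted p = 0.0029).

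The distance from III to VI was seen along the arms. It was -0.073 ± 0.022 (SD, n = 13) for probes 20 to 50 kb from an end, below 0 in 13 strains, and -0.033 ± 0.022 (SD, n = 13) over 100 kb from an end, below 0 in 12 strains. WT14 gave -0.0025 and 0.030 in these bins. Chromosome I was below VI in 11 of 13 strains, by 0.10 on average, a difference of -0.101 ± 0.277 (SD, n = 13, exact permutation adjusted p = 0.018). That mean was set by strain 113, and without it the difference was -0.025 ± 0.027 (SD, n = 12, exact permutation adjusted p = 0.024). With the gained stretch of VI left out in strain 76, it no longer passed (exact permutation adjusted p = 0.17 over 13 strains).

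Chromosomes I and III differed by -0.044 ± 0.274 (SD, n = 13, exact permutation adjusted p = 1.0). Strain 113 turned this sign: in the other 12 strains I was above III by 0.032 ± 0.034 (SD, n = 12), in 11 of 12 strains (exact permutation adjusted p = 0.021). Chromosome III was below IX by 0.030 on average (-0.030 ± 0.046, SD, n = 13), in 11 of 13 strains, and VI was above IX by 0.028 ± 0.051 (SD, n = 13), in 10 of 13 strains. Neither passed after adjustment (exact permutation adjusted p = 0.075 and 0.11), nor did I against IX (-0.074 ± 0.278, SD, n = 13, exact permutation adjusted p = 0.61).

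**Figure D3:**
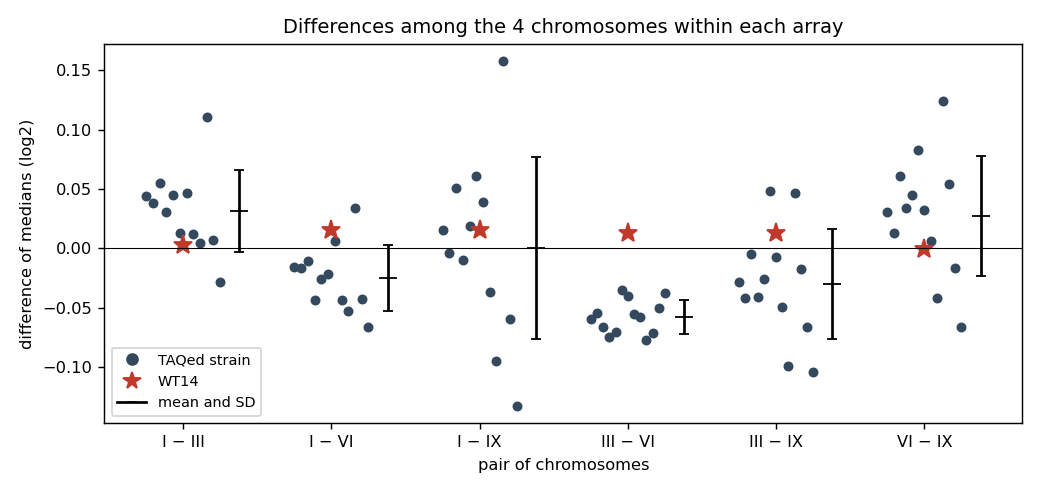
Difference of the median log2 ratios of 2 chromosomes within each array, for the 6 pairs of the 4 short chromosomes; dots are TAQed strains, the star is WT14, and the bar gives mean and SD over the strains. Strain 113 is left out of the 3 pairs with chromosome I. III minus VI is the tightest group, with all 13 strains between -0.077 and -0.035 and WT14 at 0.013. Without the gained stretch of VI, which is included here, strain 76 would lie at 0.024, above WT14.

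Losses and gains were called past 0.3 on the log2 scale. Of the 52 levels (4 chromosomes, 13 strains), 3 were below -0.3, which were chromosome I of strains 113 and 106 and III of strain 106, and 0 were above 0.3. Over all 16 chromosomes 3.85% of the 208 levels were below -0.3 and 2.88% were above 0.3. In strain 106 both levels were barely inside the limit, at -0.302 for I and -0.306 for III, and chromosome I of strain 119 was barely outside, at -0.296. The level of I in strain 113 is thus the only one of the 52 near that of 1 copy against 2.

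In windows of 10 kb, 71 of 1430 means over the 4 chromosomes and 13 strains were below -0.3 and 8 were above 0.3, against 3.34% and 3.98% of all windows. On WT14 the counts were 0 of 110. Most losses came from few arrays: without strain 106 and without chromosome I of strain 113, 20 of 1320 were below -0.3, while the 8 gains stayed. Strain 106 had 8 such windows on I, 12 on III, 5 on VI and 8 on IX, and strain 119 had 9 on I, 5 on III and 2 on IX. All 8 gains lay on chromosome VI of strain 76. Partition of the probes along each chromosome gave 98 segments with at least 10 interior probes in the TAQed strains, of which 11 were lost and 4 gained, and 0 called ones on WT14. On all 16 chromosomes 10.9% of the 823 segments were lost and 11.7% were gained.

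Chromosome I of strain 113 was the largest change. Its 19 windows ran from -1.17 to -0.22, and 18 were below -0.3. In the other 12 strains the windows of this chromosome lay between -0.45 and 0.13, and on WT14 between -0.029 and 0.094. The low level did not reach evenly to both ends. From the left, the probes from 20 kb up to 27994 had a median of -0.29, and the ratio fell at 28023 by 0.52 (step between the medians of the 20 kb on either side). The next segments stood at -0.98 up to 54279, at -1.11 from 54426 to 159691 and at -1.01 from 159770 to 198058. At 198417 the ratio rose by 0.78, and the 43 interior probes to the right had a median of -0.18, where the other 12 strains lay between -0.42 and -0.038. In the outer 20 kb, beyond the probes chosen here and with both ends pooled, strain 113 stood at -0.39, strain 119 at -0.42 and strain 106 at -0.32. The right segment of strain 113 from 198417 to 230115, outer probes included, had a median of -0.17 over 82 probes. The pooled value thus need not hold for each end.

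The probes of chromosome I in strain 113 also scattered more. A probe was counted as deviating when it lay 0.5 away from the running median of 101 probes, after the median of the other arrays was taken off. On this chromosome 25 probes deviated upward and 12 downward, against 0 or 1 each way on the other 13 arrays except the dim array of strain 81, which had 26 and 12. Groups of neighbouring probes were counted at a limit of 0.4, here and in the following. In strain 113, 9 of 42 probes were high between 176625 and 184500, 5 of 18 between 25857 and 30412 and 5 of 7 between 198619 and 199633. The last group lay right of the rise at 198417, and the one from 25857 spanned the fall at 28023. Near such a step the running median covers probes on both sides, so neither of these groups by itself shows scatter within the low part. Only the group from 176625 lay wholly inside it, and the 25 upward probes include some near the steps. The lowest probe, at 179898 to 179957, had a ratio of -2.17, where WT14 had 0.027 and no other strain was below -0.34. The ratio of this chromosome was low throughout its middle, with single probes above and below the level around them.

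In strain 119, 179.9 kb of chromosome I from 24732 to 204663 stood at -0.29, and the 10 interior probes of the segment from 205775 to 226904 stood at -0.60. The step at 205775 was -0.33, while the other arrays had steps between -0.023 and 0.46 there. In strain 106 the loss segments on the 4 chromosomes lay toward the ends: on III up to 76399 at -0.37 and from 255009 to 306867 at -0.36, on VI from 15105 to 71041 at -0.31 and from 213902 to 269940 at -0.29 over their interior probes, and on IX from 385660 to 439201 at -0.39. The middle of the same chromosomes was less low, at -0.27 on III from 76616 to 254755 and at -0.21 on VI from 71176 to 213705. Strain 119 had a lost segment at the same end of III, up to 46600 at -0.39. Over the probes of the loss segments of strain 106 on III, its medians were -0.34 and -0.31, and over that on IX -0.32, so this strain lay close to strain 106 there. Both arrays were also lower toward the ends of the other 12 chromosomes. Probes 20 to 50 kb from an end stood there at -0.24 in strain 106 and -0.23 in strain 119. Those over 100 kb away stood at 0.078 and 0.072. Whether the called segments near the ends go beyond such a slope along the whole array was not tested.

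Chromosome VI of strain 76 carried the only long gain. The 379 probes from 32247 to 106965, over 74.7 kb, had a median of 0.54, near the 0.58 of 3 copies against 2. For the same probes WT14 had a median of 0.0054 and the other 12 strains ranged from -0.26 through -0.049 to 0.031, so strain 76 stood apart from them all. The ratio rose by 0.61 at 32247 and fell by 0.64 at 107230, between probes 373 and 324 bases apart. The remaining 710 interior probes to the right stood at -0.046, inside the range of the other strains. Whether the gained stretch holds ACT1 or TUB2 was not read here, since no annotation of this build was used.

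Left of the gain, the picture on VI was different. The 60 probes from 20938 to 31933 had a median of -0.057, where the other strains ranged from -0.31 to 0.078. Some single probes there were very low. At 20488, 20710 and 20722 the measured ratios of strain 76 were -6.73, -8.01 and -8.69, where WT14 had -0.16, 0.069 and 0.12 and no other strain was below -0.50. The Cy5 spots of these 3 probes were not well above background while their Cy3 spots were. Taking the dimmest signal called above background on that array as the limit, the strain was at least 23.2-fold, 47.2-fold and 67.9-fold lower than WT14. Between 25763 and 29549, 6 of 20 probes deviated downward, with a mean of -0.77, with the others near the level of the surroundings. The window from 20001 to 30000 thus held both probes without signal above background and probes at the usual level, and its mean of -0.59 was the lowest on VI among the 14 arrays.

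**Figure D4:**
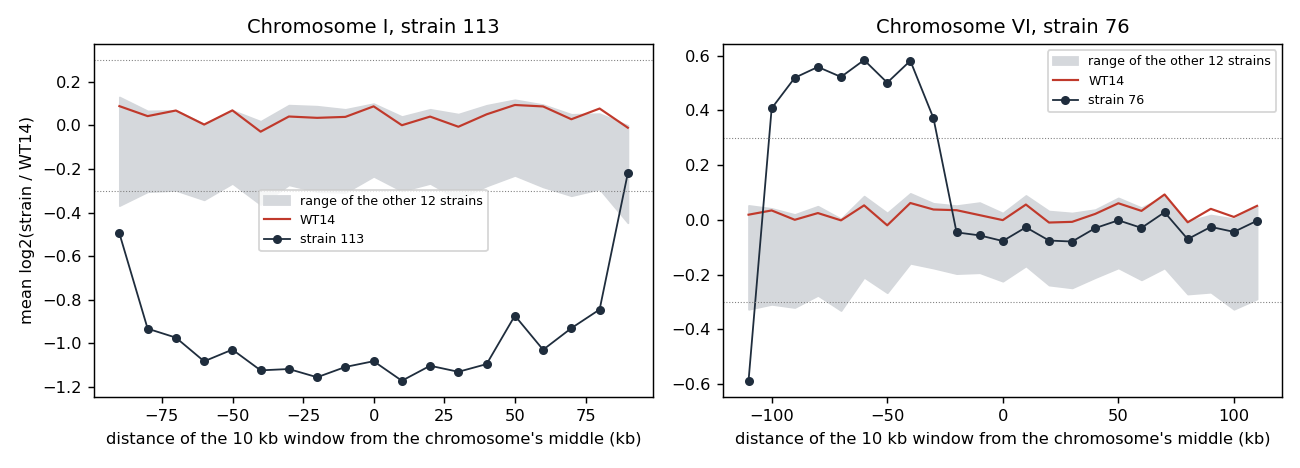
Mean log2 ratio in 10 kb windows against distance from the middle of the chromosome in kb, for chromosome I in strain 113 (left) and chromosome VI in strain 76 (right). The grey band is the range of the other 12 TAQed strains, the red line is WT14, and dotted lines mark 0.3 and -0.3. Strain 113 is lowest in the middle of I, at -1.17, and returns to -0.22 at the right; strain 76 has 8 windows above 0.3 on VI next to 1 at -0.59.

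Chromosome IX of strain 101 held a short run of very low probes. The window from 390001 to 400000 had a mean of -0.78, while no other strain was below -0.41 in any window of this chromosome. Within 390975 to 397125, 11 of 24 probes deviated downward. The lowest were those at 390975, 392709, 392789 and 394889, with measured ratios of -5.67, -3.09, -6.54 and -7.33, where WT14 ranged from -0.083 to 0.33 and no other strain was below -0.69. The spots at 390975 and 394889 were not well above background in Cy5, so that the strain was at least 42.5-fold and 36.6-fold lower there. Between 392789 and 394889 the probes were mixed. Those at 393047, 393807 and 393837 were also low, at -0.72, -0.91 and -1.11, where no other strain was below -0.50, while that at 394109 stood at -0.14, inside the range of the other strains from -0.41 to 0.024.

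Another group in strain 101, at 385149 to 388728, had 5 of 21 probes low, with the lowest at -1.74. A further one lay near the other end of IX, at 37871 to 38978. There 6 of 7 probes were low, with a median of -0.51, where WT14 had 0.049 and the other strains ranged from -0.22 to 0.34. The part of IX between these groups stood near the chromosome level of -0.13. In the 5555 probes and 13 TAQed arrays, 9 values were below -2, 5 of them in strain 101, 3 in strain 76 and 1 in strain 113. On all chromosomes 219 interior probe values were this low, or 0.0296%, against 9 of 72179 here.

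The ratios of another stretch of IX moved as a block in several strains. The 7 probes from 205921 to 210272 had a median of 0.24 on WT14, and 10 of the TAQed strains lay between 0.030 and 0.31. In strain 73 the median was 1.02, with the 7 probes between 0.73 and 1.37. In strain 106 it was 0.62, with probes between 0.41 and 1.13, and in strain 83 it was -0.35, with probes between -0.54 and 0.12. Every probe of strain 73 was above the same probe of all other arrays, and both directions were thus seen at the same 4.35 kb. These probes were above 0 also on the WT14 array, where both channels hold the same DNA. No probe sequence was read, so whether these probes also match other places in the genome was not tested. Their ratios alone therefore do not show a copy change at this position.

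**Figure D5:**
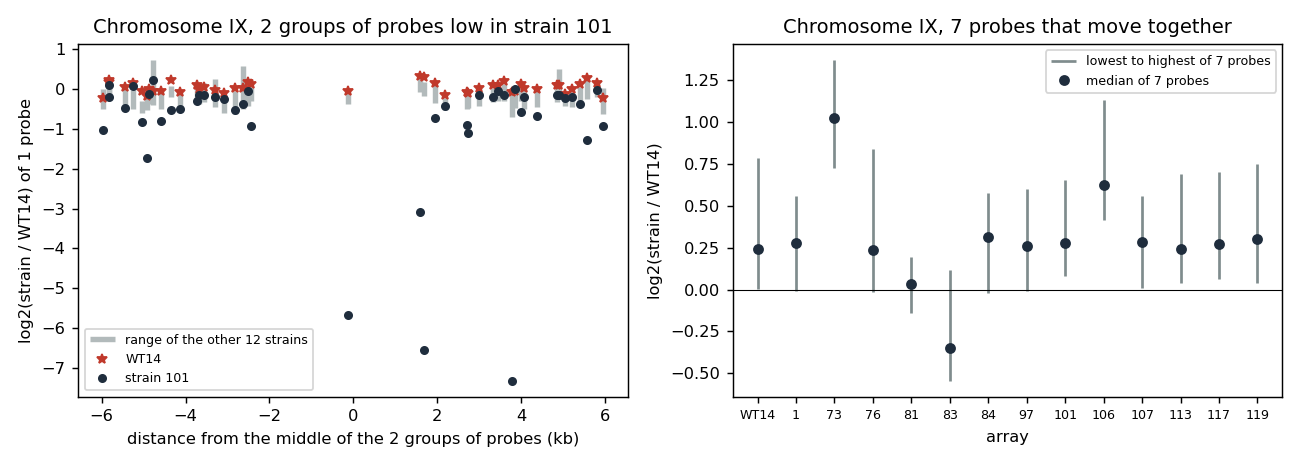
Left, log2 ratio of single probes of chromosome IX in 2 groups that were low in strain 101, against distance in kb from their middle, with grey bars for the range of the other 12 strains and stars for WT14; most probes lie near the bars and 4 lie between -3.09 and -7.33. Right, median (dot) and range (line) of the 7 probes that move together on IX, by array; strains 73 and 106 are high at 1.02 and 0.62 and strain 83 is low at -0.35.

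Chromosomes III and VI had fewer such places. On III, strain 73 had a segment of 10 probes from 84264 to 90844 with a median of 0.44, where WT14 had 0.21 and the other strains ranged from -0.093 to 0.34. Matches of these probes elsewhere in the genome were not tested either. On VI, strain 84 had 6 of 22 probes low between 203751 and 208191, with a mean deviation of -0.59. With at least 5 deviating probes past 0.4 no more than 2 kb apart, 10 groups were found on the 4 chromosomes in 6 strains, of 105 on all 16 chromosomes, and 2 of those 105 were on WT14. These limits were chosen after the data were seen. With 0.5 in place of 0.4 the groups on the 4 chromosomes were 4 of 55 on all 16, and with at least 3 probes they were 23 of 298. The 4 chromosomes held 5555 interior probes and the other 12 held 51423, so no excess of groups on the 4 is read from these counts. Windows of 10 kb in which over 10% of the probes deviated by 0.5 numbered 3 low and 3 high of 1320 on the 4 chromosomes, leaving out the dim array of strain 81, against 0.357% low and 0.218% high on all chromosomes.

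Small steps were shared by many arrays. On IX, at 23711 or 23962, strains 1, 83, 97, 107 and 113 had steps of -0.41 to -0.31, and WT14 had -0.29 to -0.30 there. At 323994 on IX, strains 73, 83, 106, 107, 117 and 119 had steps of -0.11 to -0.070, with -0.046 on WT14. On III it rose at 71661 in strains 84 and 107, by 0.073 and 0.11, with 0.066 on WT14. These steps were therefore present, at a similar or smaller size, on the array that compared WT14 with itself.

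A change common to the TAQed strains was looked for with limma in all 1145 windows of 10 kb, 13 arrays against that of WT14. 0 windows passed limma's Benjamini-Hochberg adjusted p of 0.05 (0% of all, 0 of the 110 on the 4 chromosomes), and 22 had an unadjusted p under 0.05. Of these, 11 lay on the 4 chromosomes, all below WT14, against 1.83% of all windows below WT14 at that p. The estimate was below WT14 in 110 of 110 windows of the 4 chromosomes, with a median of -0.13, against 56% and a median of -0.021 over all windows. The 110 windows share the same single WT14 array and are not independent. With slide as a covariate the estimate was below WT14 in 102 of the 110 windows and 0 of them had an unadjusted p under 0.05.

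On III the estimates farthest from 0 were at its left interior end, at -0.25 ± 0.11 (limma SE) for 20001 to 30000. On IX they were at the right, at -0.27 ± 0.20 for 390001 to 400000, the window of the low probes of strain 101, and at -0.23 ± 0.10 for 400001 to 410000. On VI all estimates were between -0.16 and -0.032, and on I the largest was -0.24 ± 0.23 for 190001 to 200000. All had a limma adjusted p of 0.99.

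The spread of single probes set what could be seen on each array. Noise between neighbouring probes had an SD of 0.113 to 0.130 on 13 arrays and 0.186 on that of strain 81, whose median Cy5 intensity was 25 against 157 to 284.5 on the others. Over 4 chromosomes and 13 strains, the width between percentiles 10 and 90 of the probes had a median of 0.37.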

How the data were processed

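Genomic DNA of 13 TAQed strains and WT14 was hybridised by the study on custom Agilent 2-colour tiling arrays, strain in Cy5 and WT14 in Cy3, without dye swap. The authors deposited spot tables of Feature Extraction 11.0.1.1 with processed intensity per channel, background-subtracted and linearly dye-normalized, in coordinates of build sacCer2. The authors also deposited a matrix that gives the log10 ratio of both colours at 47691 spots, used here as an alternative; all its columns belong to a mapped array, and it holds no comparison of groups.

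The log2 ratio of the deposited processed intensity was computed for each spot, 997 control spots, 23 probes spanning over 100 bases and spots flagged as outliers (64 to 135 per array) were removed, and 468 probes printed 5 times were averaged. No loess was applied. Each array was centred on its median. Windows held at least 10 probes. Chromosomes were divided by optimal partitioning (penalty 10, multiplied by the noise variance and the logarithm of the probe number; segments of 10 probes or more). Exact permutation tests used scipy 1.17.1, and the fit across windows used lmFit and eBayes of limma 3.58.1 with Benjamini-Hochberg adjustment. Partitioning, the limma fit and the sign-flip test were tested on simulated data. Array number, 1 per strain, limits the precision.

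Samples were grouped by the labels. For WT14 they carry the same treatment text as for the TAQed strains, while the study describes it as not activated. Places to describe were the windows, segments and levels past 0.3 and the 3 lowest and 3 highest limma estimates per chromosome. On the 4 chromosomes all of these estimates were below 0. The members and lists were chosen with earlier results of these data known. Alternatives covered normexp background correction, which was run on median signals with an offset of 50 because the tables hold no mean signals, loess, the matrix, spot filters, subtraction of WT14, centring, the margin at the ends, thresholds, windows and penalty. No gene was placed and no probe sequence was printed, since no annotation or sequence of this build was used here.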

Additional observations from a re-analysis of the deposited data

Results flagged for a closer look

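On chromosome III from 91376 to 92353, a stretch of 6 probes that the choice of probes leaves out, 12 TAQed strains were above WT14 by more than 0.3. Their medians lay between 6.40 in strain 107 and 9.02 in strain 113. WT14 had -0.065 and strain 83, the only other array near 0, had -0.19. It was singled out because the signal lies in data outside the comparisons and above the control. Its part in the levels of chromosome III is nil here, since the probes were left out, and with them kept the segments called on the 4 chromosomes rose from 15 to 26.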

How the results depend on the processing

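The lower level of the 4 chromosomes against the other 12 kept its direction under every alternative. It passed its exact permutation test in each alternative over all 13 strains, with means from -0.13 to -0.061, and in the 3 versions run within slide 2. Within slide 1 it did not pass, at -0.092 (p = 0.0625, the smallest possible there), at -0.056 against the median of the other 12 (p = 0.125) and at -0.024 at the same end distances (p = 0.19). Without each strain in turn it lay between -0.121 and -0.090. The difference of III and VI kept its direction throughout, from -0.065 to -0.048, and between -0.060 and -0.056 without each strain, and lost its call only within slide 1, at -0.065 (exact permutation adjusted p = 0.075). I minus VI lost its call within slide 1 (-0.022), within slide 2 (-0.15), with normexp (-0.073) and without the gained stretch of VI in strain 76 (-0.094), an alternative chosen after the data were seen, and lay between -0.11 and -0.025 without each strain. I minus III and I minus IX, which had no call, turned to 0.043 and 0.014 within slide 1, which does not hold strain 113. Without each strain they lay between -0.057 and 0.032 and between -0.093 and 0.00052, where the upper values are those without strain 113. III minus IX passed with loess (-0.035) and with WT14 subtracted (-0.042), and lay between -0.037 and -0.024 without each strain, passing without strain 84 and without strain 107 (exact permutation adjusted p = 0.022 and 0.023). VI minus IX lay between 0.018 and 0.038 over the alternatives and between 0.020 and 0.035 without each strain, where it passed without strain 119 (0.035, exact permutation adjusted p = 0.033). No slide test changed its call. Levels past 0.3 numbered 1 in place of 3 with normexp, a margin of 40 kb, the mean of the probes or a threshold of 0.4, and 9 at a threshold of 0.2. With normexp the level of I in strain 113 was -0.80. Windows past 0.3 numbered 30 with normexp, 123 with WT14 subtracted, 123 when centred on the other 12, 51 at a margin of 40 kb, 236 and 32 at thresholds of 0.2 and 0.4, and 161 and 39 in windows of 5 and 20 kb, in place of 79. Called segments numbered 8 with normexp, 31 with WT14 subtracted, 26 with the stretch on III kept, and 26 and 7 at penalties of 5 and 20, in place of 15. The median spread of the probes was 0.55 with normexp, 0.26 with loess and 0.22 with WT14 subtracted, in place of 0.37. The mean of the window at 390001 on IX in strain 101 was -0.35 with normexp and -0.52 with only spots well above background. The cause of these shifts was not tested. With limma, 0 windows passed under all 12 alternatives and without strain 81. No paired analysis was possible because each strain has 1 array and the number of a TAQed strain pairs it with no WT14 array. The single WT14 array limits every comparison with the control, and the dim array of strain 81 limits calls of single probes there.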
